A study of Homo sapiens with 6 samples.

Results

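The genes of the SWI/SNF ATPases and of the subunits that define each SWI/SNF complex were examined for accessible regions in Nthy-ORI cells, a human line derived from normal thyroid follicular epithelium and immortalised in culture. The set was named gene by gene and holds 10 of 19970 protein-coding genes on chromosomes 1 to 22 and X: SMARCA4, SMARCA2, ARID1A, ARID1B, ARID2, PBRM1, BRD7, BRD9, PHF10 and SS18. All 10 were found in the RefSeq gene table. A peak was counted for a gene when its position lay within 1 kb of a gene boundary ("gene end"), deeper inside the gene ("inside"), or beyond it by up to 100 kb ("outside").

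The assay was ATAC-seq, where Tn5 transposase cuts exposed DNA and attaches sequencing adapters to it. All cells were first kept for 24 h without hormone, in medium with charcoal-stripped serum and no phenol red. They were then held for 6 h in NaOH vehicle, or for 6 h or 24 h in 10 nM T3, the active form of thyroid hormone (triiodothyronine), with 2 samples per group. The vehicle samples carry the 6 h label, and no vehicle of 24 h entered these comparisons, so the effects of hormone and of time cannot be told apart at 24 h. Only 1 cell line was used, and whether a group's samples were separate cultures is not stated in the labels.

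SWI/SNF complexes use the energy of ATP to slide or evict nucleosomes and so open DNA for transcription factors. Each complex carries 1 of the alternative ATPases SMARCA4 (BRG1) and SMARCA2 (BRM). ARID1A or ARID1B marks canonical BAF, while ARID2, PBRM1, BRD7 and PHF10 mark PBAF, and BRD9 marks non-canonical BAF. SS18 belongs to canonical and to non-canonical BAF. The series links these remodellers to transcription driven by the thyroid hormone receptor TRβ, and the lists show where peaks were called at the remodellers' own genes in each group.

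The deposited data were 3 lists of peaks, 1 per group, each holding the peaks that ranked alike in both samples by the irreproducible discovery rate (IDR), here at most 0.05. They held 7103 peaks in vehicle, 12385 with T3 at 6 h and 60661 with T3 at 24 h. Each peak has a signal from each of 2 replicate columns, which carry no sample number, and their sum. The normalisation of the signal is not stated, so a peak's strength is given as its percentile within its own list, where 100 is the strongest. Read depth is unknown, and the lack of a peak does not show closed chromatin. With 1 list per group, no test between groups could be made. Among 8 thyroid follicular marker genes, gene-end peaks stood at 0 genes in vehicle, at 1 with T3 at 6 h (PAX8) and at 5 with T3 at 24 h. TG and SLC5A5, for thyroglobulin and the iodide symporter, had none in any list. Among 5 epithelial markers, 1 had a gene-end peak at 6 h (KRT8) and 3 at 24 h (KRT8, KRT18 and EPCAM). KRT8 and KRT18 shared the same 24 h peak, chr12:52949031-52950146, at percentile 81.4, so it counts for both genes. It lay more than 1 kb upstream of the RefSeq start of KRT8. The 6 h peak of KRT8 lay 30141.5 bp downstream of that start. Among 5 mesenchymal markers, 1 had a gene-end peak at 6 h (ZEB1) and 4 at 24 h. Among 3 blood markers 1, CD3E, had one at 24 h. Over all protein-coding genes, 10.8% had a gene-end peak at 6 h and 60.8% at 24 h.

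Gene-end peaks stood at 0 of the 10 genes in vehicle, at 1 with T3 at 6 h and at 7 with T3 at 24 h. The gene at 6 h was SS18. Those at 24 h were SMARCA4, SMARCA2, ARID1A, ARID2, PBRM1, BRD9 and SS18. ARID1B, BRD7 and PHF10 had none in any list. Over all 19970 protein-coding genes, gene-end peaks stood at 1.34% in vehicle, 10.8% at 6 h and 60.8% at 24 h. With peaks within 1 kb of the RefSeq start alone, the counts were 0, 1 and 6 of the 9 genes with a given start, beside 1.21%, 11.3% and 61.7% of all genes. The exact Clopper-Pearson 95% interval of 7 in 10 runs from 34.8% to 93.3%, covers counting error only and includes that background. When every list was limited to its 7103 strongest peaks, the numbers were 0, 0 and 0 of the 10 genes. Over all genes the shares were then 1.34%, 6.26% and 16.6%. This limit drops weaker peaks by construction, and the part of list length in the step to 7 was not tested.

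Set as pairs of lists, T3 at 6 h against vehicle gave 1 of the 10 genes a gene-end peak with T3 only, where 10.3% of all genes did. T3 at 24 h against vehicle gave 7, where 59.6% of all genes did. T3 at 24 h against T3 at 6 h gave 6 a peak at 24 h only, where 50.5% of all genes did. No gene of the set had a gene-end peak in vehicle only, where 0.846% of all genes did against 6 h and 0.225% against 24 h. None had one at 6 h and not at 24 h, where 0.551% of all genes did. The shares of the set thus lay near those of all genes. A gene-end peak at 24 h alone was also the most frequent pattern among all genes with a peak, with 9952 of them. The pattern of SS18, a peak at 6 h and 24 h and none in vehicle, was shared by 1960 genes.

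Both ATPase genes had a 24 h peak at the start of the gene. The SMARCA4 peak at chr19:10960291-10961179 (hg38, as all positions) had signals of 8.08 and 9.71 in the first and second replicate columns, and its summed signal of 17.8 stood at percentile 74.3. Its position lay 189.5 bp upstream of the RefSeq start, and the summits of the replicates were 99 bp apart. The SMARCA2 peak at chr9:2014736-2015415 had signals of 7.36 and 11.0, summing to 18.3 at percentile 76.0, and lay 171.5 bp upstream of the start. The ATPase genes differed in the rest of their surroundings. SMARCA2 had 0 peaks within 100 kb in vehicle, 0 at 6 h and 4 at 24 h, of which 2 were inside the gene. SMARCA4 had 2 in vehicle, 2 at 6 h and 17 at 24 h, and its inside peaks lay at different places in each list. In vehicle it was chr19:10969653-10971221 (signals 3.24 and 5.73, percentile 20.2). At 6 h it was chr19:11050392-11051035 (4.71 and 4.67, percentile 26.2). At 24 h there were 2, at chr19:11012605-11013971 and chr19:11034581-11036152, with percentiles of 28.5 and 53.4. None of these 4 was shared with another list. Their replicate summits lay 401, 101, 356 and 144 bp apart in that order, so none was kept with summits within 100 bp, and only the last had an IDR of at most 0.01.

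**Figure D1:**
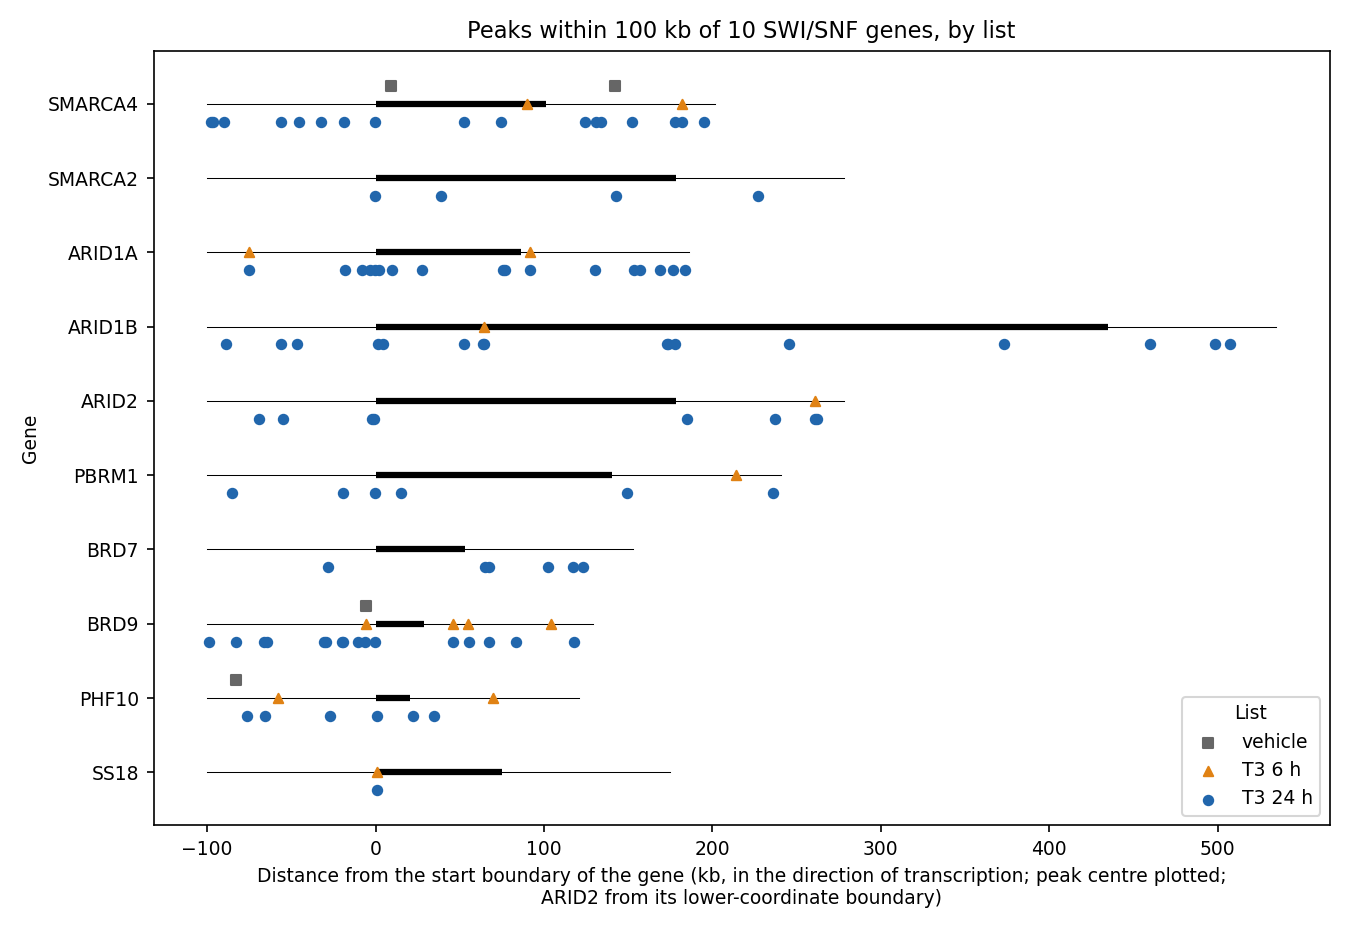
Peaks of the 3 lists within 100 kb of each gene, plotted by peak centre against the distance in kb from the gene's start boundary, in the direction of transcription (ARID2 from its lower-coordinate boundary). Thick bars are genes, thin lines the 100 kb on either side, and symbols the lists; at 24 h SMARCA4 and ARID1A have 17 peaks each, ARID1B and BRD9 16 each, and SS18 has 1.

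The genes of the canonical BAF subunits ARID1A and ARID1B both lacked vehicle peaks within 100 kb and had 17 and 16 peaks there at 24 h. In vehicle, 33.1% of all genes had such a peak. The windows differed in length, at 286 and 635 kb. Per 100 kb, ARID1A had 5.94 peaks at 24 h, at percentile 88.1 of all genes, and ARID1B 2.52, at percentile 35.7. ARID1A had a gene-end peak at 24 h, chr1:26695327-26695933, with signals of 5.17 and 6.52 summing to 11.7. It stood at percentile 44.2, the lowest of the 7 gene-end peaks, and 433.5 bp upstream of the start. The annotated gene LOC124900417 has an end within 1 kb of the same position. A further 5 peaks at 24 h lay inside ARID1A, the strongest at chr1:26771429-26771967 with signals of 10.5 and 9.43 and percentile 80.6. ARID1A carried 5.81 inside peaks per 100 kb of gene at 24 h, the most of the set, against 1.91 when all protein-coding genes were pooled.

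ARID1B, the longest gene of the set at 435 kb, had 10 peaks inside at 24 h, 1 at 6 h and 0 in vehicle. The peak nearest to its start at 24 h lay 1618 bp downstream, at chr6:156777229-156778109, outside the 1 kb limit, with signals of 3.88 and 5.32, percentile 17.6 and replicate summits 594 bp apart. The next, chr6:156780226-156780647, lay 4517 bp downstream with both summits at the same base, signals of 7.11 and 8.69 and percentile 67.0. The strongest inside peak, chr6:156839568-156839951, had signals of 12.3 and 14.1 and percentile 92.3. It overlapped the 6 h peak chr6:156839373-156840937, whose signals were 4.74 and 4.72 at percentile 29.0. That 6 h peak was wider, at 1565 bp, and also covered a second 24 h peak, chr6:156840276-156841144. This position inside ARID1B was the one place more than 1 kb inside a gene of the set with a peak in more than 1 list.

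The PBAF genes fell into 2 with and 2 without a gene-end peak at 24 h. PBRM1 encodes the polybromo subunit, which reads acetylated histones. Its peak at chr3:52685444-52686620 had signals of 9.13 and 12, summing to 21.1 at percentile 83.3, and lay 90 bp from the start. GNL3, a nucleolar GTPase gene, has an end within 1 kb of the same position, so the peak counts for both genes. The strongest peak of the whole set lay inside PBRM1 at chr3:52670627-52671390, with signals of 11.0 and 18.7 and percentile 95.8. PBRM1 had no vehicle peak within 100 kb, and its 1 peak at 6 h lay 74.1 kb beyond the gene, inside NISCH.

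ARID2, the DNA-binding subunit of PBAF, had a 24 h peak at chr12:45728709-45729213, 760 bp outside its lower-coordinate boundary. Its signals were 8.46 and 11.0, summing to 19.4 at percentile 79.1, with summits 18 bp apart. It was the 24 h gene-end peak of the set farthest from a boundary, and with a limit of 500 bp ARID2 no longer had one. A stronger peak lay next to it, 2046 bp from the boundary, at chr12:45727049-45727954, with signals of 11.96 and 12.11 and percentile 88.9. ARID2 had 0 peaks inside the gene in any list, over 178 kb.

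PHF10, which carries PHD fingers, had 1 peak inside at 24 h, chr6:169722607-169724273, with signals of 8.0 and 9.84 and percentile 74.5. Its position lay 1776 bp downstream of the start. With a limit of 2 kb, PHF10 and ARID1B joined the genes with a gene-end peak at 24 h. These then numbered 9, beside 67.6% of all genes. BRD7, a bromodomain protein, had no peak inside the gene or at its ends in any list. Its 6 peaks at 24 h lay outside, the nearest 12.1 kb beyond the gene and inside ADCY7, and it had 0 in vehicle and 0 at 6 h.

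BRD9, the bromodomain subunit of non-canonical BAF, had a 24 h gene-end peak at chr5:892548-893276, 34 bp outside the gene. Its signals were 4.34 and 7.42, summing to 11.8 at percentile 44.6, and the replicate columns placed it at percentiles 17.4 and 58.7, the widest gap of the 7 gene-end peaks. TRIP13, a checkpoint ATPase gene, has an end within 1 kb of the same position. BRD9 had 1 peak within 100 kb in vehicle, 4 at 6 h and 16 at 24 h, and none of them was inside the gene. The only region near the set that was present in all 3 lists lay here, 6.44 kb beyond BRD9 and inside TRIP13. It was chr5:897204-899961 in vehicle (signals 5.30 and 5.04, percentile 57.3), chr5:897062-900033 at 6 h (4.48 and 5.43, percentile 43.5) and chr5:897605-900033 at 24 h (4.74 and 4.29, percentile 15.6). It was a broad region in each list, 2758, 2972 and 2429 bp wide.

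SS18, a subunit of BAF known for its fusion to SSX genes in synovial sarcoma, was the one gene of the set with a gene-end peak at both T3 times. At 6 h the peak was chr18:26089782-26091384, with signals of 4.33 and 5.31 and percentile 35.0. At 24 h it was chr18:26089606-26091399, with signals of 10.5 and 11.2 and percentile 84.6, the highest of the gene-end peaks of the set. The replicate summits lay 819 bp apart at 6 h and 89 bp apart at 24 h, and the 6 h peak was lost when summits had to lie within 100 bp or the IDR at or below 0.01. No other peak was found within 100 kb of SS18 in any list. At 0.36 peaks per 100 kb of its surroundings, SS18 stood at percentile 3.3 of all protein-coding genes at 24 h, while BRD9, with 6.99, stood at percentile 95.1.

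The gene-end peaks of the set were of ordinary strength for such peaks at 24 h. Their median percentile in the list was 76.0, against 72.2 for all 11536 peaks at gene ends. Ranked among those gene-end peaks alone, they ran from percentile 22.8 at ARID1A to 69.3 at SS18. ARID1A and BRD9 stood apart below the other 5 genes by summed signal. In each replicate column ARID1A and BRD9 were again the lowest of the 7. SMARCA4, SMARCA2, ARID2, PBRM1 and SS18 lay between percentiles 65.8 and 86.8 in the replicate columns, and the spread between columns did not separate them in a fixed order.

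**Figure D2:**
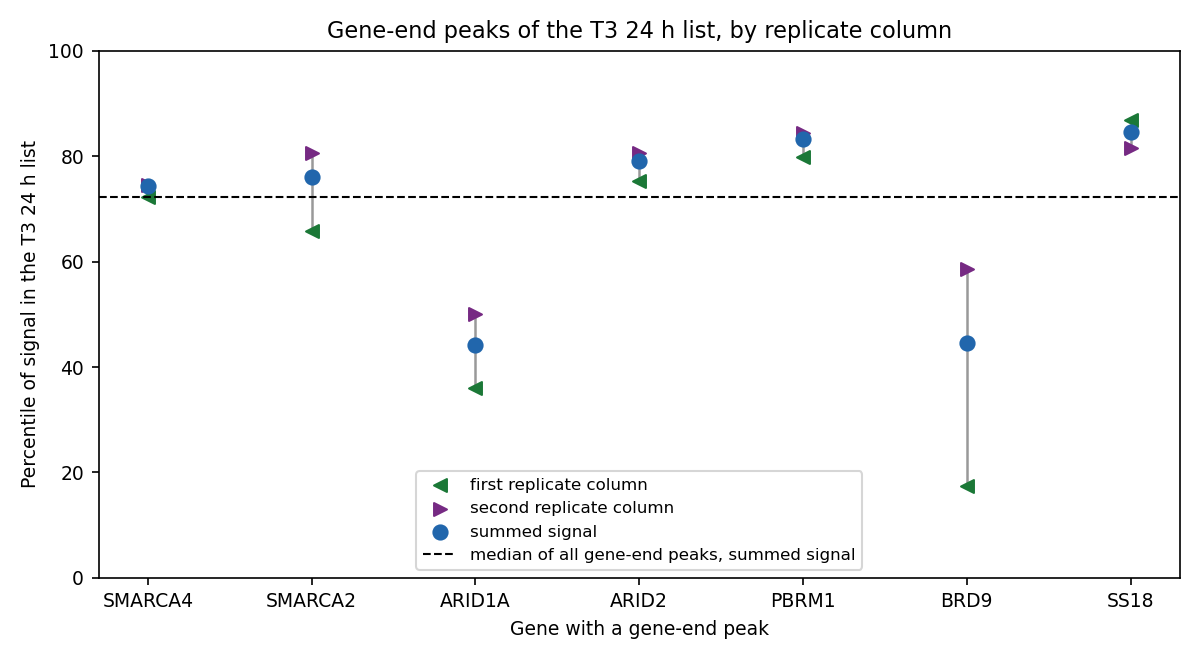
Signal percentile within the T3 24 h list of the gene-end peak of each gene that had one; circles are the summed signal, triangles the 2 replicate columns, and the dashed line the median of all gene-end peaks, 72.2. ARID1A and BRD9 lie below the line in both columns, and SS18, PBRM1 and ARID2 above it in both. SMARCA4 lies at the line in the first column and above it in the second. SMARCA2 lies below the line in the first column (65.8) and above it in the second (80.7). The line was drawn from summed signal, not from the single columns.

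RefSeq promoter sequences (GRCh38.p14, 250 bases before to 50 after the start) matched 9 of the 10 genes, all but ARID2. Those of SMARCA4, SMARCA2 and PBRM1 are shown because a 24 h peak covered them whole, and that of SS18 because it alone lay under a 6 h peak too. BRD7 and ARID1B are examples of promoters under no peak, one rich and one poor in CpG. Other starts of a gene were not examined, and a 24 h peak lay 1618 bp downstream of the ARID1B start used here. Each is written 5′ to 3′ on the strand of the gene, with capitals at motif matches on either strand. The capitals mark the CCAAT box, spelled as its name, and the GC box, with the letters GGGCGG. They also mark the core bound by ETS factors, with the letters CGGAAG, and the motif of AP-1 factors, with the letters TGANTCA.
SMARCA4, chr19:10960780-10961079, plus strand: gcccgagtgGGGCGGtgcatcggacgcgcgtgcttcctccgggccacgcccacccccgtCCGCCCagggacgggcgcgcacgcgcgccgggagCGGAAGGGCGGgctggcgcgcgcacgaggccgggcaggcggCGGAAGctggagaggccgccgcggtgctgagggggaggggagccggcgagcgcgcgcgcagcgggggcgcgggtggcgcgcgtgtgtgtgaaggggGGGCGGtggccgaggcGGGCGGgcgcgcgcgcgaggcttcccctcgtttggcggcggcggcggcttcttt
SMARCA2, chr9:2015097-2015396, plus strand: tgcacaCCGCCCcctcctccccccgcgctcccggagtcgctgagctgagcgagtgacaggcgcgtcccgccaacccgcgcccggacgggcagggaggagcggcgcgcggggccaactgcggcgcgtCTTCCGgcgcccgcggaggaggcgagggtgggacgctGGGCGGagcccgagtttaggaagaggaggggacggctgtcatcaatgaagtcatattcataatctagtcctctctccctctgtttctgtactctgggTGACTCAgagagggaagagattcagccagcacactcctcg
PBRM1, chr3:52685864-52686163, minus strand: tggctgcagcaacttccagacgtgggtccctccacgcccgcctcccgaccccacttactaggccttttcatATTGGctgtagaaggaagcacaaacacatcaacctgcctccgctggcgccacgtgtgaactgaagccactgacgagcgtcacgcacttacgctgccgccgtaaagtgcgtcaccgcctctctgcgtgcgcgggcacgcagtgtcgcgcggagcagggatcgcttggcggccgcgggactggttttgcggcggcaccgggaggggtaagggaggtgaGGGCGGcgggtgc
SS18, chr18:26091170-26091469, minus strand: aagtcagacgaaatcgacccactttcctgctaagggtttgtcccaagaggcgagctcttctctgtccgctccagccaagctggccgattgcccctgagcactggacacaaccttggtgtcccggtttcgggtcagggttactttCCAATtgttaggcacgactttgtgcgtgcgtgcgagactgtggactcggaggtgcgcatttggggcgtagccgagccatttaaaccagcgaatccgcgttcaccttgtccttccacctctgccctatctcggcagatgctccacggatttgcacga
BRD7, chr16:50368939-50369238, minus strand: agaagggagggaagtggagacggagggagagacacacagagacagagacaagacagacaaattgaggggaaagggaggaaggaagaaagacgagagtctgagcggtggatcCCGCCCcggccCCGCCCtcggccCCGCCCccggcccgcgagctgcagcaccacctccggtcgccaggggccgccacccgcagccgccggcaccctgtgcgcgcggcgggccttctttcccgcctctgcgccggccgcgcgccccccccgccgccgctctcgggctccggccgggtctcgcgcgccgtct
ARID1B, chr6:156775776-156776075, plus strand: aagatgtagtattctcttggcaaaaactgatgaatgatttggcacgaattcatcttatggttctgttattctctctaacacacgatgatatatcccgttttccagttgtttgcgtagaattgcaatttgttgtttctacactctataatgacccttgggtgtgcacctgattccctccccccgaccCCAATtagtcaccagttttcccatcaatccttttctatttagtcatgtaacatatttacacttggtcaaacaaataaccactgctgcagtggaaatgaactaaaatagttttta

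The 24 h peaks covered all 300 bases of the SMARCA4, SMARCA2 and PBRM1 promoters, 253 of BRD9, 230 of SS18 and 169 of ARID1A. They covered 0 of ARID1B, BRD7 and PHF10. The 6 h list covered 215 bases of the SS18 promoter and 0 of the others, and the vehicle list 0 of all 9. The promoters differed in CpG content. SMARCA4 had 55 CpG dinucleotides, at percentile 99.6 of 15811 promoters, and SS18 had 21, at percentile 47.5. ARID1B had 5, at percentile 18, with a GC content of 37.7% against a median of 62.7%. Over all promoters the median CpG number was 27 where a 24 h peak lay within 1 kb of the start and 7 where none did. BRD7 with 37 and PHF10 with 47 had no such peak, so the CpG number alone did not sort the set.

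GC boxes were found in 7 of the 9 promoters, against 58.5% of all promoters, and CCAAT boxes in 3 (PBRM1, SS18 and ARID1B), against 36.3%. In SMARCA4 there were 5 GC boxes and 2 ETS cores, 1 of which shares a base with a GC box, and ETS cores in SMARCA4 and SMARCA2 compare with 25.6% of all promoters. The SMARCA2 promoter held the one AP-1 match, against 5.76% of all. The nuclear receptor motif AGGTCA, the TATA box TATAAA and the NRF1 core GCATGCG were in 0 of the 9, against 11.7%, 9.64% and 5.14% of all. A direct repeat of that motif with 4 bases between, the classical form bound by thyroid hormone receptors, was in 1 of the 15811 promoters and in 0 of these 9. These are matches of letters in 300 bases and say nothing of binding there or elsewhere.

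Counted over their surroundings, the 10 genes had 4 peaks in vehicle, 14 at 6 h and 97 at 24 h. Pooled over the genes and their surroundings, these were 0.121, 0.425 and 2.94 peaks per 100 kb. Over all genes the values were higher in each list, at 0.181, 0.508 and 3.26. At least 1 peak within 100 kb was found for 3 genes in vehicle, 8 at 6 h and 10 at 24 h, where 33.1%, 66.8% and 97.6% of all genes had one. Peaks inside the gene were found for SMARCA4 in vehicle, for SMARCA4 and ARID1B at 6 h and for 6 genes at 24 h. Over all genes those shares were 6.95%, 13.2% and 42.4%. Pooled over the set, there were 1.62 inside peaks per 100 kb of gene at 24 h, against 1.91 over all genes. Of the 97 peaks at 24 h, 35 had a boundary of the same gene as their nearest gene end. The windows of SMARCA4, ARID1A and BRD9 hold many other genes, so their outside counts also describe those neighbours.

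**Figure D3:**
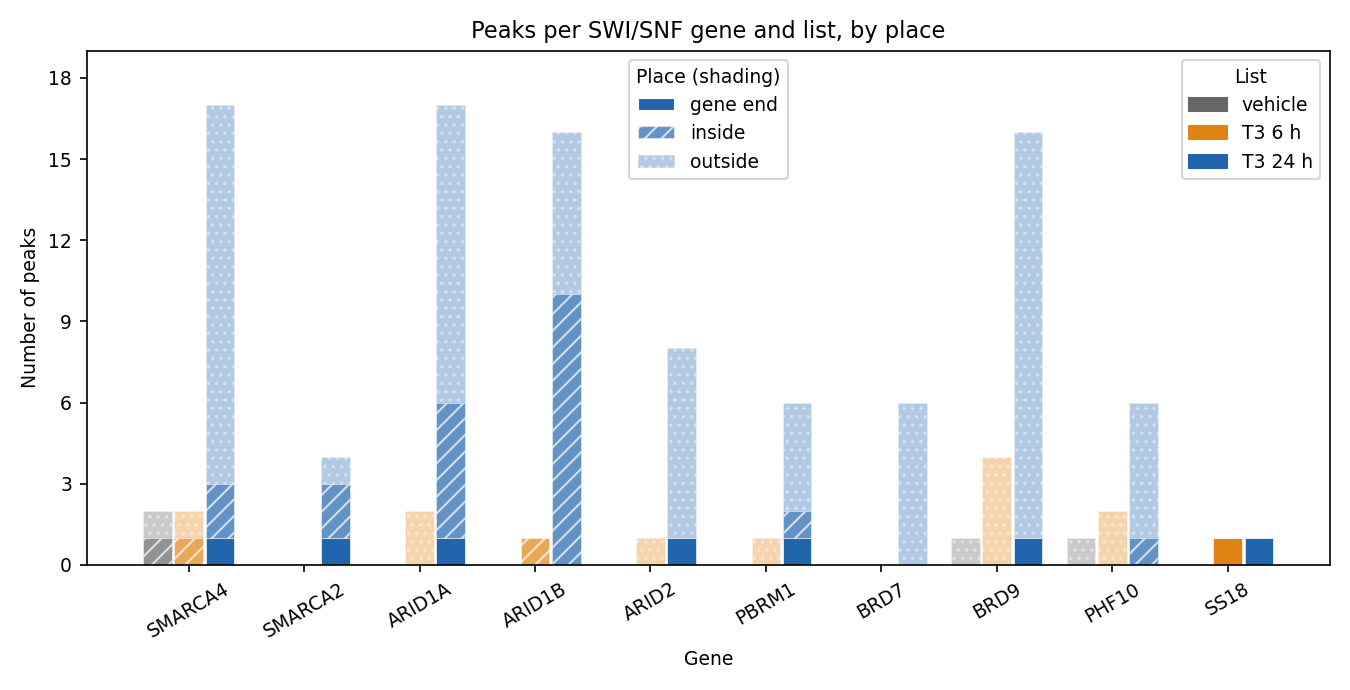
Number of peaks per gene (y axis) in the vehicle, T3 6 h and T3 24 h lists (bars from left to right in each gene), split by place: gene end (solid), inside the gene (hatched) and outside within 100 kb (dotted). BRD7 and SMARCA2 have no vehicle or 6 h peak, and ARID1B has the most inside peaks, 10.

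Of the 97 peaks at 24 h, 10 (10.3%) overlapped a 6 h peak by at least 50% of the shorter one, and of the 14 at 6 h, 9 (64.3%) overlapped a 24 h peak. Over the whole lists those shares were 10.2% of 24 h peaks and 49.3% of 6 h peaks. The region inside TRIP13 near BRD9 was the only one that either T3 list shared with vehicle, as 1 of 14 peaks at 6 h, 1 of 97 at 24 h and 1 of 4 in vehicle. Over the whole lists 19.2% of 6 h peaks and 4.05% of 24 h peaks were shared with vehicle. The recurring regions included one near ARID1A with 6 h signals of 6.78 and 8.34, at chr1:26786546-26788850. It stood at percentile 94.3, the highest of any 6 h peak near the set, but lay 39 bp from an end of PIGV, a gene of GPI anchor synthesis. The 24 h peak that overlapped it, chr1:26787297-26788449, had signals of 5.01 and 5.82 and stood at percentile 36.8 of its own list. Near ARID2 and inside SCAF11, the 24 h peak chr12:45989770-45991105 (11.4 and 14.6, percentile 91.8) overlapped the 6 h peak chr12:45990062-45991077 (3.57 and 5.69, percentile 21.9). The 5 peaks at 6 h that did not recur lay near PHF10 (2) and near SMARCA4, PBRM1 and BRD9.

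The replicate summits lay a median of 223 bp apart in vehicle, 234 bp at 6 h and 43 bp at 24 h, where the lists as a whole had 180, 222 and 46 bp. Summits within 100 bp were found for 2 of 4 vehicle peaks, 4 of 14 at 6 h and 70 of 97 at 24 h, where the whole lists had 38.3%, 29.4% and 70.5%. An IDR of at most 0.01 was reached by 1 vehicle peak, 3 at 6 h and 75 at 24 h, where the whole lists had 43.5%, 32.7% and 70.6%. The 24 h list, with the most peaks, also had the closest summits, while the 6 h list had more peaks than vehicle and summits farther apart. The part of replicate agreement in the counts was not tested.

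**Figure D4:**
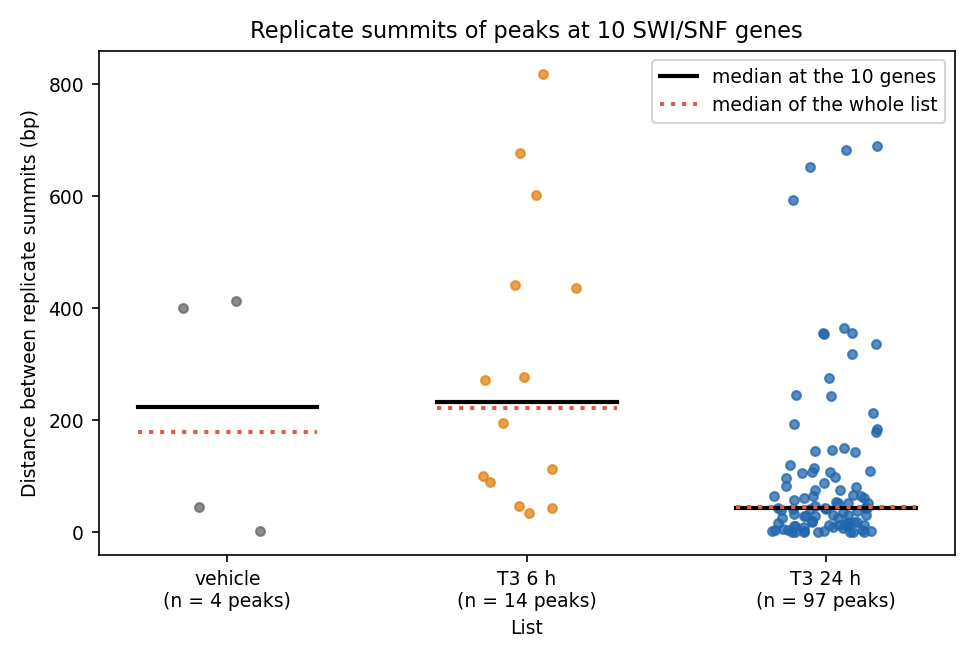
Distance in bp between the summits of the 2 replicates (y axis) for every peak within 100 kb of the 10 genes, by list; black lines are medians at these genes and dotted red lines medians of the whole list. The 24 h peaks have a median of 43 bp, and the vehicle and 6 h peaks medians of 223 and 234 bp.

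Of 21 other SWI/SNF genes, for core and accessory subunits, 0 had a gene-end peak in vehicle, 4 (19.05%) at 6 h and 17 (81.0%) at 24 h, beside 1.34%, 10.8% and 60.8% of all genes. The exact Clopper-Pearson 95% interval at 24 h, 58.1% to 94.6%, includes that background. Those at 6 h were ACTL6A, SMARCE1, BCL7B and BCL11A. Of these 4 peaks, only that of SMARCE1 lay within 1 kb of a RefSeq start, and ACTL6A had no given start. The BCL7B peak at 6 h lay 20437.5 bp downstream of the start, while its 24 h peak lay 67.5 bp downstream. BCL11A, a zinc finger subunit of BAF, had a 6 h gene-end peak at percentile 89.1 and none at 24 h, the one SWI/SNF gene of either list with that pattern. The BCL11A peak lay more than 1 kb upstream of the RefSeq start, with replicate summits 359 bp apart. The strongest at 24 h were ACTL6A, an actin-related subunit, at percentile 98.2, DPF3, a PHD finger subunit, at 92.8, SS18L1, the paralog of SS18, at 92.0, and SMARCC1, a core scaffold, at 89.1. All 4 stood above SS18, the highest of the 10 genes described here at 84.6. The SS18L1 peak lay at the end of the gene, 39093 bp from its start, and its start peak stood at percentile 45.2. SMARCD3, ACTL6B and BCL7C lacked a gene-end peak in all 3 lists.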

How the data were processed

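ATAC-seq peaks of 6 samples in 3 groups came as 3 deposited lists. Bowtie2, MACS2, Trim Galore, CASAVA 1.7 and DiffBind, with the build hg38, are listed in the submitters' processing notes without settings. Any Tn5 shift, duplicate removal or blacklist is not stated in the labels. The signal deposited for each peak adds up both replicate columns, and its normalisation is unstated. The deposited score is a scaled IDR, and its −log10 value, also deposited, served for the stricter limit. Read counts were not analysed here, so depth is unknown.

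A peak's position was the mean of its replicate summits. Genes and promoters were from RefSeq GRCh38.p14, which gave a start for 15811 of 19970 genes; exons and introns were not separated. Peaks were shared when 50% or more of the shorter one was covered by the other. The tools were pandas 2.3.3, numpy 2.4.6, scipy 1.17.1, matplotlib 3.10.9 and Python 3.11.15. The code was tested on simulated data and checked against bedtools 2.31.1. Genes, lists and alternatives were chosen with earlier results of these data known. All 10 genes are named, and of the other SWI/SNF genes the 4 strongest at 24 h and those with gene-end peaks in the 6 h or vehicle list. Those with none in all lists were named after their values were seen. Alternatives changed the summit distance, IDR, list length, window, overlap and ranking.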

Additional observations from a re-analysis of the deposited data

How the results depend on the processing

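The genes are the 10 described above unless the other 21 SWI/SNF genes are named. With replicate summits within 100 bp, vehicle had 0 genes with an inside peak and 2 peaks within 100 kb. At 6 h there were 0 genes with a gene-end peak, 1 with an inside peak, 4 peaks within 100 kb and 0 other SWI/SNF genes. Shared peaks then numbered 0 between 6 h and vehicle, 1 of the 6 h peaks with 24 h and 2 of the 24 h peaks with 6 h. With an IDR of at most 0.01, vehicle had 0 genes with an inside peak and 1 peak within 100 kb. At 6 h there were 0 with a gene-end peak, 0 with an inside peak, 3 peaks within 100 kb and 2 other SWI/SNF genes. Shared peaks then numbered 0 between either T3 list and vehicle, and 2 in each direction between 24 h and 6 h. With lists of equal length by summed signal, 6 h had 0 genes with a gene-end peak, 0 with an inside peak, 6 peaks within 100 kb and 2 other SWI/SNF genes. At 24 h these were 0, 2, 9 and 4, and 0 peaks of the 24 h list were shared with vehicle or 6 h, in either direction. With each replicate column alone setting the equal length, 6 h had 0 to 0, 0 to 2, 7 to 8 and 2 to 4, and 24 h had 0 to 0, 2 to 2, 7 to 9 and 2 to 4. The 24 h list then shared 0 to 0 peaks with vehicle and 1 to 1 with 6 h, in each direction. An equal length drops the weakest peaks by construction; the cause of the other shifts was not tested. A gene-end limit of 500 bp gave 0 genes and 2 other SWI/SNF genes at 6 h, and starts alone gave 1 other SWI/SNF gene. Over all genes, gene-end peaks at 6 h stood at 3.14% with the summit limit, 3.59% with the IDR limit and 8.79% at 500 bp. At 24 h the set had 7, 7 and 6 such genes in that order, beside 43.5%, 55.1% and 52.6% of all genes. A window of 50 kb held 8 peaks at 6 h and 62 at 24 h. Peaks whose nearest gene end belonged to the gene numbered 1, 3 and 35. Ranked among gene-end peaks at 24 h, percentiles were 53.1 for SMARCA4, 55.9 for SMARCA2, 22.8 for ARID1A, 60.4 for ARID2, 67.1 for PBRM1 and 69.3 for SS18. By single replicate columns they were 40.2 to 41.5 for SS18 at 6 h, and at 24 h 72.2 to 74.5 for SMARCA4, 75.3 to 80.5 for ARID2 and 79.8 to 84.4 for PBRM1. In all, 75 alternative values were classed as moved and 87 as the same, and the latter still held changed values at 24 h. With replicate summits within 100 bp, 4 genes had an inside peak and 70 peaks lay within 100 kb. Gene-end peaks then stood at 14 other SWI/SNF genes. With an IDR of at most 0.01, 75 peaks lay within 100 kb and 15 other SWI/SNF genes had a gene-end peak. By single replicate columns, BRD9 stood at percentiles 17.4 and 58.7. No paired analysis was possible because the replicate columns carry no sample number and no test was made.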

Other observations

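Part of the 24 h peaks around the SWI/SNF genes lay at or inside neighbouring genes. Of the 69 outside peaks at 24 h, 14 lay within 1 kb of an end of another gene, 29 inside another gene and 26 in neither. In the whole 24 h list, 11536 of 60661 peaks lay at a gene end. The peaks at other gene ends had a median percentile of 79.5, and the remaining ones 39.9. Over the whole list these medians were 72.2 at gene ends and 44.9 elsewhere. Which gene a peak acts on was not tested. Near SMARCA4, the end of SPC24, a kinetochore gene, had a peak at chr19:11155474-11156264 with signals of 11.3 and 15.6 and percentile 92.9. Near PHF10, a peak at chr6:169751260-169752329 stood at ends of DYNLT2 and ERMARD with signals of 9.32 and 15.998 and percentile 90.9. Near ARID1A, the end of SFN, which encodes an epithelial 14-3-3 protein, had a peak at chr1:26864281-26865725 with signals of 9.68 and 14.5 and percentile 89.1. These neighbours were chosen after their values were seen.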
